A study of Mus musculus with 6 samples.

Results

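The B lineage genes Igkc, Ighm, Iglc2, Cd79a, Cd79b, Ly6d, Ebf1, Vpreb3, Mzb1 and Cd74 were followed among retinal endothelial cells (ECs). These 10 genes were selected on measured values of these libraries, the UMIs of Igkc and other B lineage genes in cells labelled ECs and their levels in both genotypes. Of the 20822 genes in the count table, 9 members had a row and Mzb1 was not analysed here. The levels in ECs, Immune and Mural cells are therefore given as a description, and no member is given a p-value or a call for the genotype contrast. Log2 fold changes with standard errors are fitted values. The standard errors come from a fit that moderates the spread over all genes and includes counting error, and they are not read as a test of a member.

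Single cells were profiled by Drop-seq, which captures each cell with a barcoded bead in a droplet and counts molecules by unique molecular identifiers (UMIs). The suspensions came from retinas of mouse pups with oxygen-induced retinopathy (OIR), a model in which high oxygen removes retinal vessels and the return to room air drives their abnormal regrowth. The eNOS+/+ group was C57BL/6J wildtype. The eNOS-/- group was homozygous for a knockout allele of Nos3, which encodes endothelial nitric oxide synthase, and had been backcrossed to C57BL/6J. Pups of both genotypes were kept with CD1 foster mothers, went through OIR and were collected at postnatal day 14. Each genotype had 3 replicates of 3 to 5 pooled retinas, and ECs were enriched with beads against CD31, a surface protein that many leukocytes carry as well. Which animals gave which pool was not given, so the spread between replicates is the spread between these pools. Nos3 UMIs stood at 19.4, 36.6 and 23.6 UMIs per 1000000 (CPM) in all ECs of eNOS+/+ replicates 1, 2 and 3 and at 21.2, 16.1 and 32.8 CPM in eNOS-/-, so this 3' tag does not check the genotype labels.

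B lymphocytes carry a receptor built of immunoglobulin heavy and light chains, and each cell as a rule makes its light chain from either the kappa or the lambda locus. The receptor signals through the partner proteins CD79A and CD79B. B cells also take up antigen and show it on MHC class II molecules, whose assembly needs the invariant chain CD74. Such cells circulate in blood and gather in lymphoid organs.

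The members lie on several chromosomes of GRCm38 (GENCODE annotation): Igkc at chr6:70726435-70726966, Ighm at chr12:113418558-113422730, Iglc2 at chr16:19198396-19200351, Cd79a at chr7:24897381-24902197, Cd79b at chr11:106311341-106314762, Ly6d at chr15:74762056-74763620, Ebf1 at chr11:44617317-45008091 and Vpreb3 at chr10:75943057-75949657. The 250 bases before the RefSeq start (GRCm38.p6) were at hand for 3 members, Cd79a, Ebf1 and Vpreb3. These RefSeq starts lie past the GENCODE starts printed above. The windows of Ebf1 and Vpreb3 are thus inside the GENCODE spans, and that of Cd79a is partly inside. They were searched on both strands for the octamer ATGCAAAT, which octamer factors read in immunoglobulin promoters, for CCCNNGGG, the core read by EBF1, and for AGGAAGT, a core read by ETS factors. The stretches with a match are printed because Cd79a and Vpreb3 were found in the same cells. Capitals mark the match, and a match on the minus strand shows the reverse complement of the letters searched.
Cd79a, AGGAAGT, plus strand, chr7:24897431-24897459: cacggctgaacAGGAAGTgaggcggagtt
Vpreb3, ATGCAAAT, minus strand, chr10:75948244-75948273: tcagtgggctgATTTGCATgctctattgtg
Vpreb3, AGGAAGT, minus strand, chr10:75948124-75948152: ggggaatgccaACTTCCTgcaaatggatg
Neither of the Ebf1 windows (2 starts) held any of these letters. Of 32851 windows of the same length, 1.60% held the octamer, 11.8% CCCNNGGG and 7.69% AGGAAGT.

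The table held 8944 cells, with 617246 to 3350799 UMIs per replicate. The annotation divides ECs into 3 labels, Tip ECs (1428 cells), Proliferative ECs (1162) and a label that reads ECs, here called Structural ECs after the remaining subtype named in the study (3335 cells). The 3 labels held 5925 cells, more than the ECs counted in the study. Whether the label ECs holds the same cells as the study's Structural subtype was therefore not checked. Structural ECs were shallow, with a median of 491 UMIs per cell, and their sums ranged from 246958 UMIs in eNOS+/+ replicate 2 to 1145608 in eNOS-/- replicate 1. Of all barcodes, 3 occurred in more than 1 replicate.

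Structural ECs, 3335 of the 8944 cells, held most UMIs of 8 of the 9 members in the whole table. In pooled CPM, however, Immune cells stood above Structural ECs for Ighm (185.1 against 45.1 CPM) and Cd74 (382.2 against 89.6 CPM). Cd79b was about level, at 11.9 CPM in Immune cells (2 UMIs) and 11.1 CPM in Structural ECs. Igkc had 371 UMIs in the whole table, of which 369 (99.5%) were in Structural ECs, with a single UMI in each of the other EC labels. The other shares in Structural ECs were 98.2% for Ly6d (109 of 111 UMIs), 98.1% for Cd79a (104 of 106), 98% for Iglc2 (49 of 50), 94.4% for Vpreb3 (17 of 18), 91.7% for Cd79b (44 of 48), 84.0% for Ighm (179 of 213) and 83.6% for Cd74 (356 of 426). Ebf1, a transcription factor that specifies the B lineage and is also transcribed in stromal and perivascular cells, was the exception. Structural ECs held 608 of its 1296 UMIs (46.9%), Tip ECs 261, Proliferative ECs 197 and Mural cells 143.

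Few cells carried these UMIs. A UMI of Igkc was found in 62 of 3335 Structural ECs (1.86%, 95% Wilson interval 1.45 to 2.38). This and later intervals cover counting error only. Ighm was found in 60 (1.80%) and Cd79a in 48 (1.44%). In rods, which are photoreceptors, Igkc and Cd79a had 0 UMIs in 1508 cells, which allows a share of up to 0.199%, at a median of 361 UMIs per cell. Ighm, Cd79b and Cd74 had 1 UMI each in rods. Ebf1 was found in 411 Structural ECs, against 31 rods (2.06%).

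Members were found together in the same cells. Structural ECs with UMIs of at least 2 of the 7 members other than Ebf1 and Cd74 are called B-carrying here, and there were 63 of them (1.89%). Of these, 13 had a barcode that differed from another cell's of the replicate only in the last base (a barcode family). The 63 cells came from 56 families, and with the deepest cell of each family kept, 55 were B-carrying. Whether cells of a family shared a bead was not tested. Those 63 cells held 363 of the 369 Igkc UMIs of Structural ECs, all 49 of Iglc2, all 44 of Cd79b and 323 of the 356 of Cd74, a gene that did not enter the definition. By contrast, they held 19 of the 608 Ebf1 UMIs. Of the other Structural ECs, 17 had a UMI of 1 of the 7 genes and 3255 of none. Just inside the limit, 13 cells had 2 of the genes (median 280 UMIs, 12 with a UMI of 20 mature B genes such as Ms4a1 and Pax5), and just outside it, the 17 cells with 1 gene had a median of 955 UMIs and 6 had a UMI of those 20 genes. A further 14, 11, 20, 4 and 1 cells had 3, 4, 5, 6 and 7 of the genes.

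**Figure D1:**
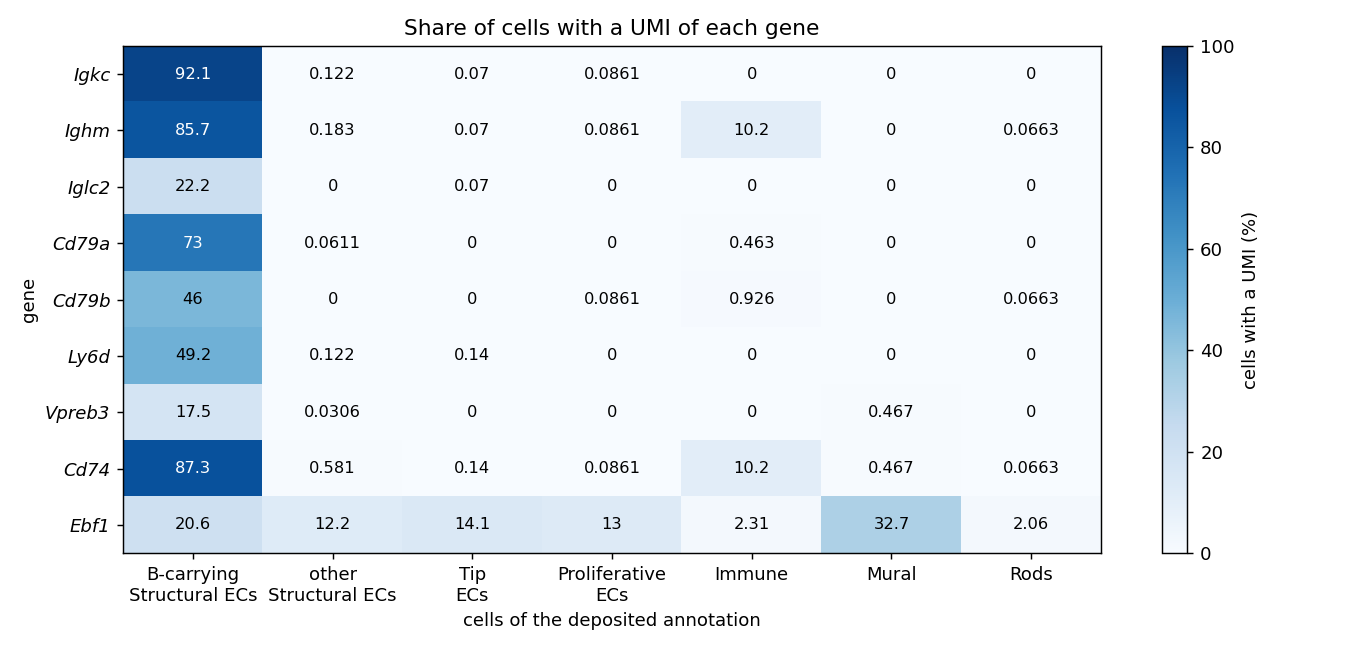
Percent of cells with a UMI of each gene (rows), in B-carrying Structural ECs, the other Structural ECs, the other EC labels, Immune, Mural and rod cells (columns). Igkc reached 92.1% and Cd74 87.3% in B-carrying cells and both were under 1% in other Structural ECs, whereas Ebf1 was highest in Mural cells, at 32.7%.

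The immunoglobulin chains were the most frequent members in these cells. Igkc, the constant part of the kappa light chain, was found in 58 of the 63 cells (92.1%), with up to 32 UMIs in a cell, and was the fifth most abundant gene there at 7131 CPM, against 1.53 CPM in other Structural ECs. Ighm, the constant part of the mu heavy chain of IgM, was found in 54 cells (85.7%) at 3379 CPM. Both genes were used to define the cells, so their levels describe the group and do not support it. The same holds for Iglc2, Cd79a, Cd79b, Ly6d and Vpreb3. Within Structural ECs 49 cells had UMIs of both Igkc and Ighm, 79.0% of the Igkc cells and 81.7% of the Ighm cells.

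Light chains of both kinds were seen. Iglc2, a lambda constant gene, was found in 14 B-carrying cells (22.2%), and Iglc1 and Iglc3, which are not members, in 17 and 25. Iglc2 and Iglc3 are near-identical copies, so the division of UMIs between them is uncertain and the lambda genes were summed. Of the 63 cells, 23 had only Igkc, 3 only lambda, 35 both and 2 neither. Of the 35 cells with both, 5 had more lambda than Igkc UMIs. In eNOS+/+ replicate 1 all 4 B-carrying cells had both, and 67.3% of its light chain UMIs were lambda (35 lambda against 17 Igkc UMIs). That share was 0% in eNOS+/+ replicates 2 and 3 and 29.3%, 21.9% and 8.89% in eNOS-/- replicates 1, 2 and 3. The lambda share thus differed between replicates of a genotype by as much as between genotypes, over 1 to 26 cells. Whether lambda UMIs beside Igkc UMIs came from the same cell or from free RNA in the droplets was not tested.

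**Figure D2:**
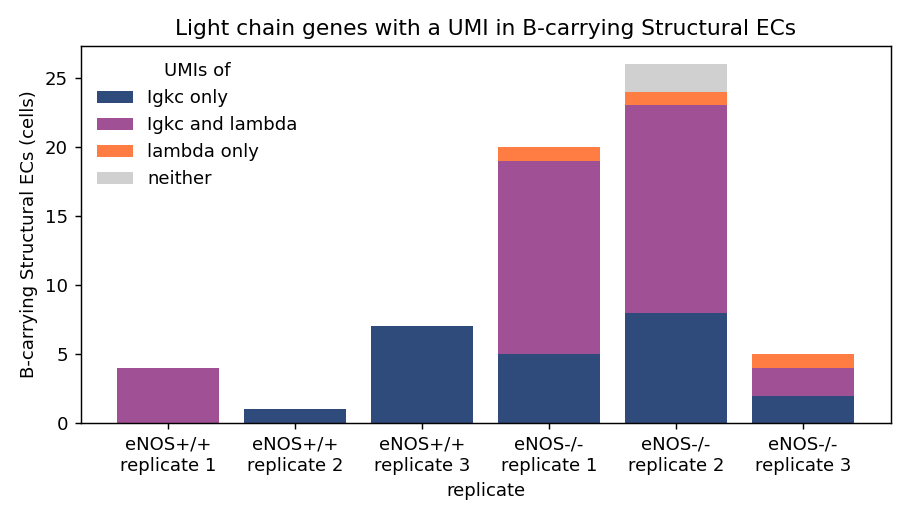
Number of B-carrying Structural ECs in each replicate (bars), divided by the light chain genes with a UMI, where lambda is Iglc1, Iglc2 and Iglc3 together. Igkc and lambda together made up all 4 cells of eNOS+/+ replicate 1 and 35 of the 63 cells in all.

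The receptor's signalling partners followed. Cd79a was found in 46 B-carrying cells (73.0%) and Cd79b in 29 (46.0%), with 22 Structural ECs having both. Of the 29 Structural ECs with Cd79b, 28 had Ighm and 26 had Igkc. Cd79a UMIs were outside B-carrying cells in only 2 of the other 3272 Structural ECs, and Cd79b UMIs in 0. Both genes helped define those cells, so this is partly built in.

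Ly6d, a surface protein used to mark lymphoid progenitors committed to the B lineage and also carried by later B cells, was found in 31 B-carrying cells (49.2%) at 2024 CPM. Vpreb3, a protein of the endoplasmic reticulum that is made in B cells and their precursors, was found in 11 (17.5%). Ebf1 was found in 13 (20.6%) at 373 CPM, against 398 (12.2%) of the other Structural ECs at 150.2 CPM. Its share of cells overlapped least with the rest of the list: of 411 Structural ECs with Ebf1, 11 had Igkc.

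Cd74 did not enter the definition of the B-carrying cells but was chosen with the other members on these cells, so its level is a description, whereas the MHC class II genes were not members. Cd74 was found in 55 of the 63 cells (87.3%) at 6346 CPM, against 19 (0.581%) of the other Structural ECs at 8.41 CPM. Of the 10 MHC class II genes listed, 8 were in the table and all 8 had UMIs in B-carrying cells, 225 in all, in 45 cells (4420 CPM, against 7.39 CPM in other Structural ECs). H2-Aa had 72, H2-Ab1 64 and H2-Eb1 43 of them.

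A list of 20 genes of mature B cells, with no member in it, had 417 UMIs in the B-carrying cells (8192 CPM, against 107.3 CPM in other Structural ECs), and all 20 genes had at least 1. A UMI of the list was found in 60 of the 63 cells, against 309 of 3272 (9.44%). Ms4a1, which encodes CD20, had 144 UMIs in 43 cells. Cd37, a tetraspanin of leukocytes, had 52 UMIs, Ighd, the delta heavy chain of naive B cells, 48, Spib, a B cell transcription factor, 16 and Pax5, which holds cells to the B lineage, 14. Blk, a kinase of B cells, and Bank1, an adaptor of their receptor, had no UMI in the other Structural ECs. Ighd was found in 25 B-carrying cells, and 23 of these also had Ighm. In other Structural ECs most UMIs of the list were those of Ralgps2 (313 of 421). In the 5 replicates with at least 3 B-carrying cells, the list stood at 10101, 871 CPM in eNOS+/+ replicates 1 and 3 and at 10954, 9587 and 11922 CPM in eNOS-/- replicates 1, 2 and 3, against 41.5 to 133.3 CPM in the other Structural ECs. It was higher in 5 of 5 replicates, by 6.24 ± 1.82 on the log2(CPM + 1) scale (SD, n = 5; two-sided exact sign-flip permutation test, p = 0.0625, adjusted p = 0.0938 over 3 tests). With 5 pairs 0.0625 is the smallest p this test allows, so it could not pass 0.05. The list was also chosen with earlier results of these data known, so the difference is not independent support.

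Genes of other stages and lineages had few UMIs, with exceptions. Of the precursor list 5 of 10 genes were in the table. Vpreb1, a part of the surrogate light chain, and Il7r, the interleukin receptor of B precursors, had 0 UMIs in B-carrying cells and Lef1 had 3. Cd24a, a surface protein of B precursors and of other cells, had 13 UMIs in 14.3% of the cells (255.4 CPM), against 2.93% of the other Structural ECs (33.1 CPM). Cd93, also an endothelial gene, had 48 UMIs (943 CPM against 1587). Among 5 plasma cell genes in the table, Jchain had 1 UMI and Xbp1 2, and Prdm1, Irf4 and Sdc1 were at 0. The 7 T and NK cell genes in the table were at 0, and at 19.1 CPM in the other Structural ECs. In 63 cells this shallow a 0 is read as at most 3 counts. The zeros of this paragraph therefore do not bound low levels. Of the 12 microglia and macrophage genes 7 were at 0, among them Cx3cr1, Tmem119, Csf1r and Lyz2, and 26 of the 40 UMIs of this list were from Ctss, a protease that antigen-presenting cells share. The list stood at 785.8 CPM, against 128.8 CPM in the other Structural ECs. The 8 mural genes had 1 UMI, the 5 rod genes 12 and the 5 red cell genes 12. No gene of the neutrophil list had a row.

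The label EC was checked with 11 endothelial genes. They stood at 3713 CPM in B-carrying cells and at 8622 CPM in other Structural ECs, and 39 of the 63 cells (61.9%) had no endothelial UMI, against 492 of 3272 (15.0%). Of the 189 endothelial UMIs of B-carrying cells, 151 lay in the 4 cells with at least 2000 UMIs. Below 2000 UMIs, the endothelial genes stood at 1171 CPM in 59 B-carrying cells and 8199 CPM in 2700 others, and at 1389 CPM in rods. In most B-carrying cells the label ECs therefore had no measured support from these genes, and the cells are named here by the genes that define them. Pecam1, which encodes CD31, was found in 16 B-carrying cells (25.4%) and in 48.2% of the others, and Cldn5, a tight junction gene of endothelium, in 5 (7.94%) against 47.9%.

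The share of cells without endothelial UMIs was higher in B-carrying cells in each range of depth below 2000 UMIs. Among cells with under 300 UMIs, 13 of 15 B-carrying cells had none, against 36.5% of the others. The shares were 12 of 19 against 14.1% from 300 to under 500 UMIs, 10 of 19 against 3.81% from 500 to under 1000, 4 of 6 against 1.28% from 1000 to under 2000, and 0 of 4 against 0.524% above that. Median UMIs per B-carrying cell were 924.5 and 305 in eNOS+/+ replicates 1 and 3 and 611.5, 378 and 529 in eNOS-/-, against 475.5 and 727, and 935, 307 and 570, in the other Structural ECs. The medians were higher in 2 replicates and lower in 3, with a mean difference of -0.14 ± 0.85 on the log2 scale (SD, n = 5; exact sign-flip permutation test, p = 0.75).

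**Figure D3:**
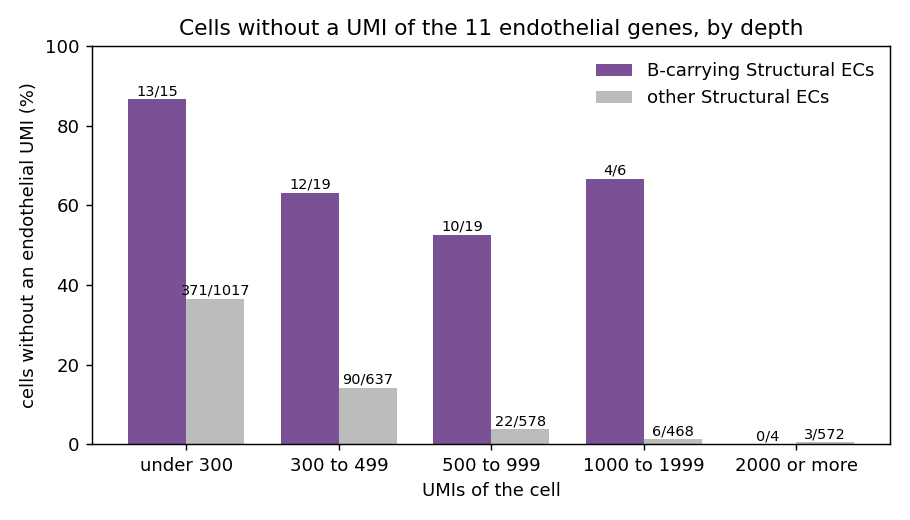
Percent of cells with no UMI of the 11 endothelial genes (bars, with the cells without and the cells in all), for B-carrying and other Structural ECs in 5 ranges of UMIs per cell. The bar of B-carrying cells was the taller one in each range under 2000 UMIs, and the 4 deepest B-carrying cells all had endothelial UMIs.

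By replicate, the endothelial list stood at 0 and 5664 CPM in B-carrying cells of eNOS+/+ replicates 1 and 3, and at 3611, 4099 and 723 CPM in eNOS-/- replicates 1, 2 and 3. Other Structural ECs of the same replicates stood at 8011 and 9395, and at 9223, 7702 and 8357 CPM. The list was lower in 5 of 5 replicates, with a mean difference of -3.90 ± 5.19 on the log2(CPM + 1) scale (SD, n = 5; exact sign-flip permutation test, p = 0.0625, the smallest it allows, adjusted p = 0.0938). The mean rests on eNOS+/+ replicate 1, whose 4 cells held no endothelial UMI. Without that replicate the mean log2 difference was -1.63. With only cells under 2000 UMIs in both groups, which leaves out the 4 deep cells, it was -5.02.

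Outside the list, the 10 genes most alike in pattern were taken by the ratio of CPM in B-carrying to other Structural ECs. The 702 eligible genes had at least 10 UMIs over all B-carrying cells and a UMI in those of at least 4 replicates. The 10 genes were Plac8, Iglc3, H2-Aa, H2-Eb1, Ms4a1, H2-Ab1, Cd37, Napsa, Tnfrsf13b and Pld4. Plac8 had 61 UMIs in 21 B-carrying cells and 0 in the other Structural ECs. Tnfrsf13b, which encodes the TACI receptor of B cells, had 18 UMIs against 5. The denominator was taken at no less than 3 UMIs, which set the ratios of Plac8, Iglc3, H2-Eb1, Napsa and Pld4. For Igkc this ratio was 4662 and for Cd79a 1926. Both genes helped define the B-carrying cells, so their ratios are large by construction and not comparable with the others.

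In the authors' integrated clustering, 53 of the 63 B-carrying cells (84.1%) fell in 1 cluster of 115 cells, of which 113 were labelled as Structural ECs. The other 62 cells of that cluster were led by hemoglobin and T cell genes, among them Hbb-bt, Ms4a4b, Trbc2, Hba-a2 and Trac. B-carrying and cluster cells numbered 4 of 6, 1 of 10 and 4 of 21 in eNOS+/+ and 17 of 29, 22 of 34 and 5 of 15 in eNOS-/-.

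Between genotypes, B-carrying cells made up 1.46%, 0.410% and 1.16% of Structural ECs in eNOS+/+ replicates 1, 2 and 3 (4 of 274, 1 of 244 and 7 of 604 cells). In eNOS-/- they made up 2.99%, 1.91% and 2.69% (20 of 669, 26 of 1358 and 5 of 186). All 3 eNOS-/- replicates were above all 3 eNOS+/+ replicates, with means of 2.53% ± 0.55 and 1.01% ± 0.54 (SD, n = 3 each). The difference of 1.52 percentage points came from the contrast that chose the genes and has no test. The 95% Wilson intervals overlapped between genotypes, for example 0.563 to 2.37% in eNOS+/+ replicate 3 and 1.94 to 4.57% in eNOS-/- replicate 1. Counted among all ECs, the difference was 0.951 percentage points. Drawn down to 500 UMIs per cell, which left 1647 Structural ECs, 26 cells were B-carrying, with shares of 2.96%, 0% and 0% in eNOS+/+ replicates 1, 2 and 3 and of 2.53%, 1.80% and 2.91% in eNOS-/-. The difference in means was then 1.43 points, but the genotypes overlapped, with eNOS+/+ replicate 1 the highest. Cells are few, and whether the share reflects the retina or what passed the CD31 beads was not tested.

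**Figure D4:**
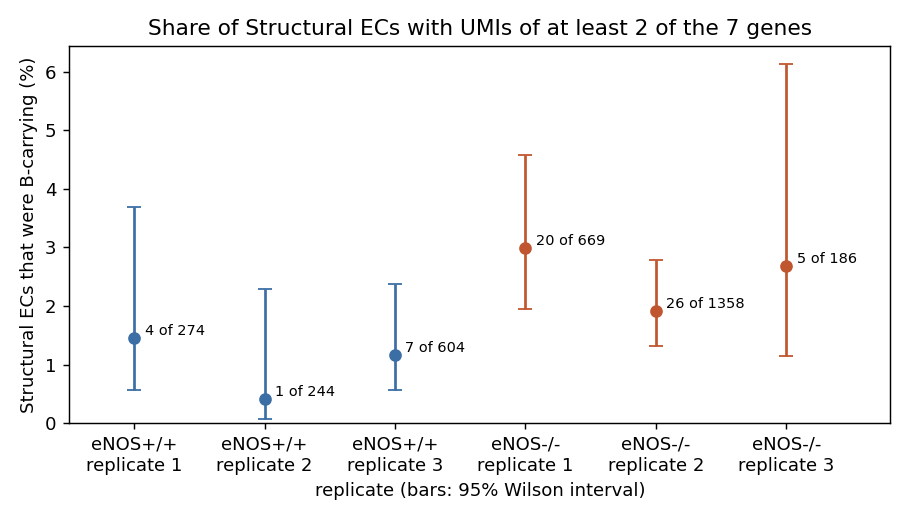
Percent of Structural ECs that were B-carrying in each replicate (points, with 95% Wilson intervals and the cells counted). The eNOS-/- replicates sit between 1.91 and 2.99% and the eNOS+/+ replicates between 0.410 and 1.46%, with intervals that overlap.

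The levels of 4 of the 9 members did not overlap between genotypes in the sums of Structural ECs, where all eNOS-/- replicates were above all eNOS+/+ replicates for 4.04% of the 18692 genes with a UMI. These members were Igkc, Ly6d, Vpreb3 and Cd74, and nothing is read from the count since this contrast led to the list. The same 4 did not overlap in all ECs (3.76% of 19593 genes). Over the whole table, edgeR's quasi-likelihood test called 2 of 7577 genes in Structural ECs (0.0264%), 1 of them higher in eNOS-/- (0.0132%), and 2 of 9483 in all ECs (0.0211%), 1 of them higher (0.0105%). These shares are the background of the contrast that chose the members, and no call of a member is read from them.

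Igkc stood at 42.4, 24.3 and 22.7 CPM in eNOS+/+ replicates 1, 2 and 3 and at 144.0, 109.1 and 153.2 CPM in eNOS-/-. Every eNOS-/- replicate was above every eNOS+/+ replicate, and the fit gave a log2 fold change of 2.16 (standard error 0.32). In B-carrying cells Igkc had 17, 5 and 18 UMIs in the 4, 1 and 7 cells of eNOS+/+ replicates 1, 2 and 3, and 164, 118 and 41 UMIs in the 20, 26 and 5 cells of eNOS-/-. As CPM within these cells the genotypes overlapped, at 3654, 18797 and 1569 CPM in eNOS+/+ and 9871, 7802 and 14812 CPM in eNOS-/-. The overlap rests on eNOS+/+ replicate 2, a single cell of 266 UMIs. In eNOS+/+ replicate 3, 1 cell with 4 Igkc UMIs held 9578 of the 11475 UMIs. Without the B-carrying cells, Igkc no longer passed the filter on low counts. Igkc helped define those cells, which held 363 of its 369 UMIs, so this follows from the definition and is no test.

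Ighm stood at 72.4, 20.2 and 8.82 CPM in eNOS+/+ and at 61.1, 51.0 and 41.1 CPM in eNOS-/-. The highest replicate was eNOS+/+ replicate 1, so the genotypes overlapped, and the fitted log2 fold change was 0.71 (standard error 0.56). Leaving out eNOS+/+ replicate 1 gave 2.07, and leaving out eNOS+/+ replicate 3 gave 0.081. Iglc2 stood at 72.4, 0 and 0 CPM in eNOS+/+ and at 11.3, 6.26 and 0 CPM in eNOS-/-, and 29 of its 49 UMIs came from the 4 B-carrying cells of eNOS+/+ replicate 1. It did not pass the filter.

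Cd79a stood at 32.4, 8.10 and 10.1 CPM in eNOS+/+ and at 35.8, 28.6 and 29.9 CPM in eNOS-/-, again with eNOS+/+ replicate 1 among the eNOS-/- values. Its fitted log2 fold change was 0.91 (standard error 0.48), or 1.69 without that replicate and 0.50 without eNOS+/+ replicate 3. Cd79b stood at 12.5, 0 and 0 CPM against 12.2, 18.8 and 14.9 CPM and did not pass the filter. The genotypes overlapped for both partners of the receptor.

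Ly6d stood at 0, 12.1 and 0 CPM in eNOS+/+ and at 40.2, 33.1 and 86.0 CPM in eNOS-/-. The 3 eNOS+/+ UMIs came from a single cell that was not B-carrying, so Ly6d was seen in 0 of 12 B-carrying cells of eNOS+/+ and in 31 of 51 (60.8%) of eNOS-/-. Counted over these 12 cells of 3 replicates, 0 allows a share of up to 25% of cells with a UMI, which does not bound expression in cells this shallow. Summed over replicates, 106 UMIs against 3 gave a ratio of 20.1. UMIs of the same cell are not independent and the contrast chose the gene, so the ratio is a description without an interval. The fitted log2 fold change was 4.32 (standard error 0.85), and 8.16 without eNOS+/+ replicate 2, which holds the 3 UMIs.

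Vpreb3 stood at 0 CPM in all 3 eNOS+/+ replicates and at 7.86, 5.37 and 7.47 CPM in eNOS-/-. In B-carrying cells it was found in 0 of 12 and in 11 of 51 (21.6%). The limit of 25% for 0 of 12 cells, counted over 3 replicates, lies above that share. Cd74 stood at 87.3, 64.8 and 30.2 CPM in eNOS+/+ and at 117.8, 95.7 and 145.7 CPM in eNOS-/-, with a fitted log2 fold change of 1.00 (standard error 0.35), or 0.60 without eNOS+/+ replicate 3. It was found in 11 of 12 B-carrying cells of eNOS+/+ and 44 of 51 of eNOS-/-. The highest eNOS+/+ and the lowest eNOS-/- replicate of Cd74 were thus 87.3 and 95.7 CPM.

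Ebf1 stood at 112.3, 137.7 and 165.0 CPM in eNOS+/+ and at 154.5, 135.0 and 261.6 CPM in eNOS-/-. The genotypes overlapped, and the fitted log2 fold change of 0.33 (standard error 0.28) was 0.32 with the B-carrying cells left out and 0.0067 without eNOS-/- replicate 3. Of the companion genes, 3 of the 20 mature B genes and 2 of the 8 MHC class II genes passed the filter and edgeR called 0 of them. Red cell genes stood at 34.9, 22522 and 8916 CPM in eNOS+/+ and at 4432, 6682 and 7366 CPM in eNOS-/-, and their part in the result was not tested.

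**Figure D5:**
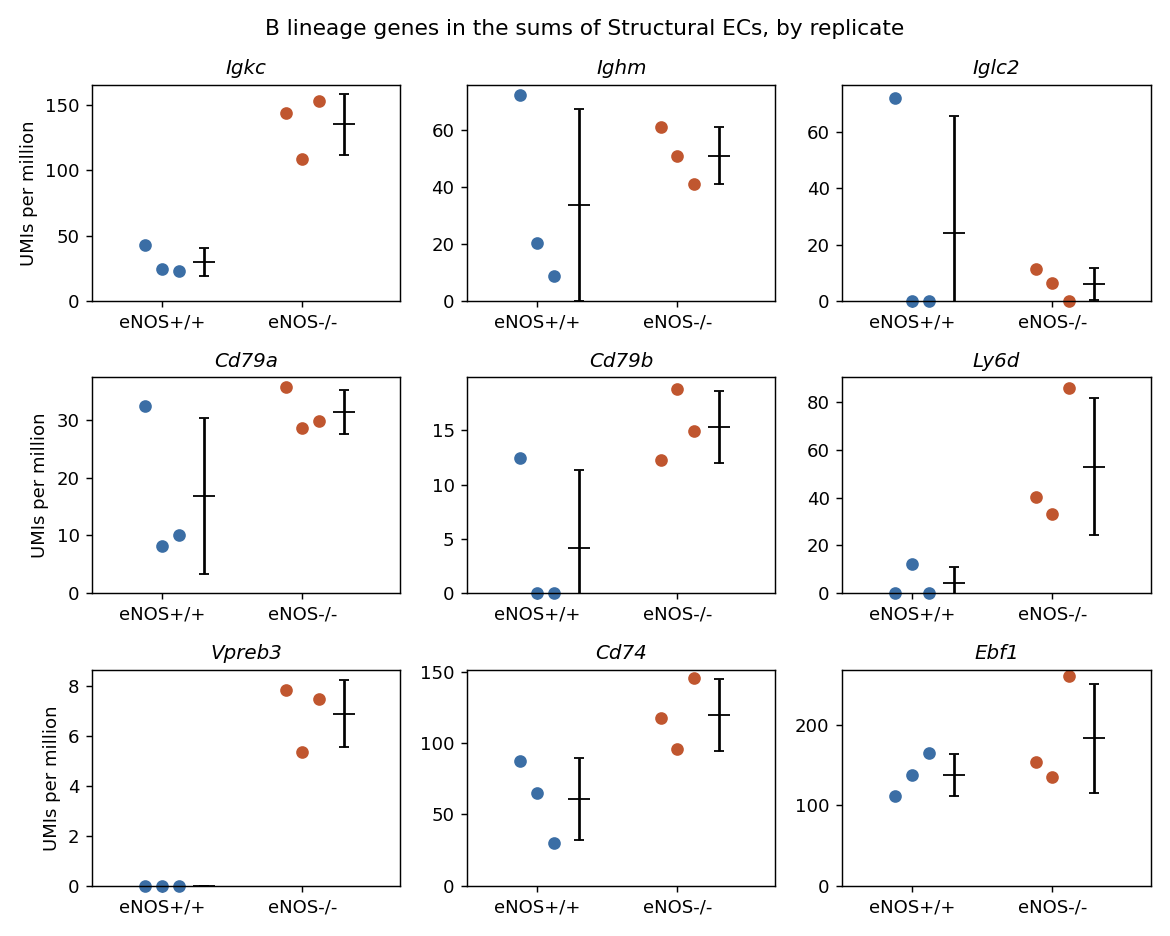
CPM of each member in the summed Structural ECs of each replicate (points), with the mean and SD of 3 replicates per genotype (black). The eNOS-/- points lie above all eNOS+/+ points for Igkc, Ly6d, Vpreb3 and Cd74, and eNOS+/+ replicate 1 is the highest point for Ighm and Iglc2.

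In cells labelled Immune (216 cells, median 518 UMIs), the members showed another pattern. Igkc, Iglc2, Ly6d and Vpreb3 were at 0, so that 0 of 216 cells allows a share of up to 1.39%, and Cd79a had 2 UMIs in 1 cell and Cd79b 2 UMIs in 2 cells. No Immune cell had UMIs of 2 of the 7 genes. Ighm was found in 22 Immune cells (10.2%), with 0, 0 and 166.2 CPM in eNOS+/+ and 234.4, 85.0 and 393.8 CPM in eNOS-/-, so the genotypes overlapped. None of these 22 cells had Igkc, Cd79a or Cd79b, whereas all 22 had a UMI of the microglia and macrophage list and 14 had Cx3cr1, a receptor of microglia. A UMI of the mature B list was found in 10 of the 22, against 47 of the 194 Immune cells without Ighm. They were deeper than the other Immune cells, with a median of 1228 against 485 UMIs.

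Cd74 was found in 22 Immune cells too (10.2%), of which 7 had Ighm. It stood at 0, 0 and 83.1 CPM in eNOS+/+ and at 330.9, 743.6 and 196.9 CPM in eNOS-/-, and was the only member of 9 whose genotypes did not overlap there, where 6.74% of 11121 genes with a UMI had eNOS-/- above eNOS+/+. The eNOS+/+ sums were small, with 21, 1 and 26 Immune cells against 65, 74 and 29. No member passed the filter in Immune cells, where edgeR called 0 of 277 genes (0%), with 8 at an unadjusted p under 0.05 and 0 called by DESeq2.

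In Mural cells, which wrap small vessels, Ebf1 was the only member with more than 1 UMI. It was found in 70 of 214 cells (32.7%) and stood at 529.9, 546.0 and 416.4 CPM in eNOS+/+ and at 527.3, 269.9 and 538.9 CPM in eNOS-/-. Means were 497.4 ± 70.6 and 445.3 ± 152.1 CPM (SD, n = 3 each), and eNOS+/+ replicate 1 had only 3 Mural cells. The fit gave a log2 fold change of -0.11 (standard error 0.45), which turned to 0.41 with no filter and ranged from -0.27 to 0.10 with each replicate left out. Of 1059 genes edgeR called 0 (0%), with 45 at an unadjusted p under 0.05 and 0 called by DESeq2. Vpreb3 and Cd74 had 1 UMI each in Mural cells and the other 6 members none, and 0 of the 9 members had eNOS-/- above eNOS+/+ (7.97% of 12414 genes with a UMI).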

How the data were processed

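Drop-seq libraries of 6 replicates were analysed. Per the methods, kb-python was used for alignment (GRCm38), and the authors kept cells with at least 100 genes and up to 10% mitochondrial UMIs, integrated replicates with Seurat 3 (submitters' processing notes), named cell types and removed red cell and pigment epithelium clusters. They deposited raw UMI counts per gene and cell, not normalized, and a table of each cell's replicate, genotype and type, which calls all 8944 cells singlets. No other doublet step was added.

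The members and gene lists were chosen with earlier results of these data known. UMIs were summed per replicate and cell type, and CPM are per 1000000 UMIs of a sum. Genotypes were compared with edgeR 4.0.16 (filterByExpr, TMM, quasi-likelihood, Benjamini-Hochberg over all genes tested, limit 0.05) and DESeq2 1.42.0, checked on simulated counts. The replicate, not the cell, was the unit. Standard errors were derived from each log2 fold change and the F value. Lists were compared within replicates by exact sign-flip permutation tests with a pseudocount of 1 CPM. Genes were named by rule: the members, the list genes, Nos3, the 10 most alike genes and called genes where 5 or fewer (these are left out, since the contrast chose the members). A count of 0 was read as at most 3 counts. Alternatives were other scaling, filters, depth, barcode families, definitions and each replicate left out. Gene positions come from the GENCODE annotation of the symbol. R 4.3.3 and Python 3.11.15 were used. Mzb1 was not analysed here, and 1 gene of the mature B list is not reported here by itself.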

Additional observations from a re-analysis of the deposited data

How the results depend on the processing

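Genes called between genotypes were 2 in all ECs, and 3 by DESeq2, 27 with no filter, 1 with cells of at least 500 UMIs, 1 with B-carrying cells left out and 1 to 102 with each replicate left out. In Structural ECs they were 2, and 3 by DESeq2, 29 with no filter, 1 with cells of at least 500 UMIs, 1 with a single cell per barcode family, 1 with B-carrying cells left out and 0 to 45 with each replicate left out (45 without eNOS-/- replicate 3, and 0 without eNOS+/+ replicate 2 or 3 or eNOS-/- replicate 1). With the replicate number as a block they were 7. The numbers do not pair the samples: deviations of same-numbered replicates correlated at 0.13, -0.076 and 0.081 in Structural ECs, and 3 of 6 samples correlated best with their own number. The block left the count at 2 in all ECs and at 0 in Immune and Mural cells. Immune cells gave 0 to 4 and Mural cells 0 to 1 with each replicate left out, and Mural cells 3 with no filter. The cause of these moves was not tested. Leaving out B-carrying cells removes most UMIs of the genes that define them, so the counts without those cells are no test. The difference in B-carrying share was 0.951 percentage points over all ECs and 1.22 to 1.83 with each replicate left out. Drawn down to 500 UMIs, the shares of the genotypes overlapped. With each replicate left out, the endothelial difference ranged from -4.69 to -1.63, the mature B difference from 5.76 to 6.98 and that in UMIs per cell from -0.42 to 0.13, turning positive without eNOS+/+ replicate 3 (0.13). Outside those ranges lay -5.02 for the endothelial list in cells under 2000 UMIs, 7.14 for the mature B list in cells with at least 500 UMIs and -0.55 for UMIs per cell against all other ECs. The difference of Ebf1 in Mural cells turned to 0.41 with no filter. The other alternatives kept the direction of these differences. The all ECs denominator, the comparison with all other ECs and the limit under 2000 UMIs were chosen after seeing the data. The 63 cells limit every statement, at 1 to 26 cells per replicate. Counted over the 12 cells of 3 eNOS+/+ replicates, a gene at 0 allows a share of up to 25%. That limit holds for no single replicate and does not bound expression in cells this shallow.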
